A study of Bos taurus with 12 samples.

Results

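The miR-29 and miR-30 families are described here in bovine intramuscular preadipocytes before and after the induction of fat cell differentiation. Members were chosen by name alone: every miRNA name in the deposited table that carries the number miR-29a to miR-29d or miR-30a to miR-30f, whichever arm or species the name gives. The rule found 22 of 1330 names, 7 in the miR-29 family and 15 in the miR-30 family. Of these 22, 11 carry a bovine name and 11 the name of another species (goat, human, mouse or hamster) whose form matched the reads best. In the cattle genome 3 of the 22 forms were not placed. A mean of at least 10 reads per library was reached by 15 members, which are described with their values, and 7 members lay under it.

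The cells were cultured intramuscular preadipocytes of newborn Qinchuan cattle, isolated from their longissimus dorsi, which the labels call intramuscular adipocytes. The 0 d group was taken before induction, and the 3 d, 6 d and 9 d groups after it. The growth medium held serum, and the agents were added to a complete medium whose make-up the paper does not spell out. Induction used dexamethasone, IBMX (a phosphodiesterase inhibitor) and insulin for 2 days, followed by insulin without the other agents, so no induced group is without insulin and no group was kept in culture without induction. There are 3 libraries for each day, 12 in all, and the study speaks of the same batch of cells over the days. It calls the libraries biological replicates without saying whether they are animals or cultures, so the p-values measure the spread between these libraries.

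The marker genes of the cells were read from the mRNA table, in FPKM (fragments scaled by transcript length and library size). FABP4, a fatty acid carrier of fat cells, had means of 3.30, 91.1, 26.4 and 9.07 FPKM on the 4 days in order. Of 8 adipocyte markers 6 were in the table, and their summed level per library ran from 10.1 to 10.9 FPKM at 0 d and from 97.3 to 108 at 3 d, and later from 37.7 to 39.4 at 6 d and from 31.7 to 40.3 at 9 d. Of these markers LPL had a higher mean than FABP4 at 0 d and LEP did at 9 d, while FABP4 was highest at 3 d and 6 d. FABP4 had the highest mean over all libraries and makes up most of the 3 d sum. The markers did not share its course: LEP had means of 2.34, 0.07, 8.02 and 20.5 FPKM on the 4 days, and LPL 4.53, 10.6, 3.03 and 6.34. CEBPA never exceeded 0.26 FPKM, and PPARG and PLIN1 were not analysed here. Of the preadipocyte and fibroblast markers DCN was the most abundant (means of 9949, 42430, 31464 and 44464 FPKM) and DLK1 was near 0. They had different courses, with COL1A1 at means of 3018, 941, 3080 and 3393 FPKM on the 4 days and PDGFRA at 160, 930, 162 and 203. Skeletal muscle markers were also present, 6 of 7 in the table, with a summed level of 692 to 808 FPKM at 0 d and 266 to 410 on the later days. DES was the most abundant of the muscle markers, and MYOD1 had means of 268, 109, 47.7 and 54.6 FPKM. Smooth muscle markers, all 3 in the table, summed to 1677 to 1809 FPKM at 0 d and 79.1 to 89.9 at 3 d, then to 1590 to 1709 at 6 d and 587 to 670 at 9 d. ACTA2 made up most of that sum except at 3 d, with means of 1697, 26.8, 1583 and 598 FPKM on the 4 days. At 3 d MYH11 was the most abundant (60.6, 59.7 and 51.2 FPKM, against 23.7, 26.3 and 19.8 at 0 d), though its difference from 0 d did not pass the test (1.30 ± 0.64, adjusted p 0.118, limma, no overlap). The 2 blood markers summed to at most 0.09 FPKM, the 4 endothelial markers to at most 2.64 and the 4 immune markers to at most 1.34. Of the immune markers PTPRC was at 0 in all libraries, while CSF1R rose at 3 d from a mean of 0.33 to 0.87 FPKM without overlap (1.23 ± 0.23, adjusted p 0.00127, limma). In bulk RNA fewer cells of a type and less RNA per cell cannot be told apart, and the part of muscle or smooth muscle cells in the results was not tested.

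The miRNA libraries hold 1704166, 1969377 and 1438548 reads at 0 d, 2231391, 3019353 and 2809503 at 3 d, then 3144661, 4673382 and 4121834 at 6 d, and finally 3265424, 2964791 and 3374856 at 9 d, so the 0 d libraries are the shallowest. The third library of 0 d stands apart from the others of its day. Among 357 miRNAs with a mean of at least 100 reads, 52 lay at least 2-fold below both other 0 d libraries in it and 44 at least 2-fold above both. In the other 11 libraries these counts ran from 0 to 9. Its cause was not tested.

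MicroRNAs guide a silencing complex to mRNAs, mostly by pairing of the seed near their 5′ end, and lower the output of the mRNA they pair with. The miR-29 family is known for targeting collagens, elastin and other matrix genes, and also enzymes that write or erase DNA methylation. The miR-30 family is known in fat cell precursors for promoting adipogenesis, in part through the bone regulator RUNX2, and in mesenchymal cells for targeting vimentin, CTGF and SNAI1.

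The sequences below show why the names of each family are read as a group: they share the seed and differ behind it. Capitals mark the seed, bases 2 to 8 counted from the 5′ end. In the miR-29 family 3 forms share the seed AGCACCA, all from the 3p arm of their hairpin, and the miR-29a form shown is the most abundant member of its family.
bta-miR-29a_L-1: tAGCACCAtctgaaatcggtta
bta-miR-29b: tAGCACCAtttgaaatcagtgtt
bta-miR-29c: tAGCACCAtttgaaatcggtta
From miR-29a to miR-29c the difference is C10T, and from miR-29a to miR-29b there are 4, C10T, G18A, T21G and A22T, with positions counted from the 5′ end of the first-named form. The reads of miR-29a start 1 base after the reference form, which moves the seed onto the one of miR-29b and miR-29c, as the reference form shows.
bta-miR-29a reference form: cTAGCACCatctgaaatcggtta

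In the miR-30 family the 6 forms of the 5p arm that were placed in the genome share the first 8 bases and the last 4, and the seed of all 6 is GTAAACA. They fall into a trio of 30a, 30d and 30e and a trio of 30b, 30c and 30f by what follows the seed.
bta-miR-30a-5p: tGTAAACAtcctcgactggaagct
bta-miR-30d: tGTAAACAtccccgactggaagct
bta-miR-30e-5p: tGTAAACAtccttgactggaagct
bta-miR-30b-5p: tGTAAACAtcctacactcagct
bta-miR-30c_R+1: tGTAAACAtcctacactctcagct
bta-miR-30f: tGTAAACAccctacactctcagct
Single bases separate some forms within the trios: T12C from 30a to 30d, C13T from 30a to 30e, and T9C from 30c to 30f. The form of 30b is shorter, with 22 bases against 24 for 30c and 30f. The 3p arms of the same hairpins carry other seeds. Those of 30a and 30e share TTTCAGT, and that of 30f, read in a form with the change G8A from its reference, carries TGGGAGA.
chi-miR-30a-3p_R+1: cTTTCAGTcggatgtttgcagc
chi-miR-30e-3p_R+1: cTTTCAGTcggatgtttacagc
chi-miR-30f-3p_1ss8GA: cTGGGAGAaggctgtttactct
bta-miR-30b-3p_R+1: cTGGGAGGtggatgtttacttc

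The members come from 11 hairpins in 5 neighbourhoods of the ARS-UCD1.2 genome. miR-29a (chr4:94636455-94636541) and miR-29b-1 (chr4:94636840-94636926) lie 299 bases apart on the minus strand, within a long non-coding RNA of the ARS-UCD2.0 annotation. miR-29b-2 (chr16:75577042-75577131) and miR-29c (chr16:75577590-75577703) lie 459 bases apart on the plus strand, and the hairpin of miR-29d follows after 83210 bases. Each remaining pair joins 1 member of each miR-30 trio. miR-30d (chr14:7041134-7041216) and miR-30b (chr14:7045566-7045654) lie 4350 bases apart, and miR-30c (chr3:105457746-105457850) and miR-30e (chr3:105460870-105460975) lie 3020 bases apart inside the gene NFYC of that annotation. miR-30f (chr9:10494807-10494909) and miR-30a (chr9:10532150-10532256) lie 37241 bases apart.

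Most reads of the families belong to a few names. Ranked by mean normalized reads among the 1330 names, miR-30d is number 15, miR-29a number 28, miR-30f number 37, miR-30c number 64 and miR-30a-5p number 89. The miR-29 family took 0.666% ± 0.0508 of all miRNA reads at 0 d (mean ± SD, n = 3 libraries for each day), 0.825% ± 0.0531 at 3 d, then 0.973% ± 0.0264 at 6 d and finally 1.29% ± 0.206 at 9 d. miR-29a alone made up 99.5% to 99.9% of the reads of its family in every library. The miR-30 family took 2.40% ± 0.685 at 0 d, 2.95% ± 0.231 at 3 d, then 2.92% ± 0.102 at 6 d and finally 3.06% ± 0.0854 at 9 d, and 45.4% to 69.5% of its reads in a library were miR-30d. These shares are of reads, with no scaling between libraries.

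**Figure D1:**
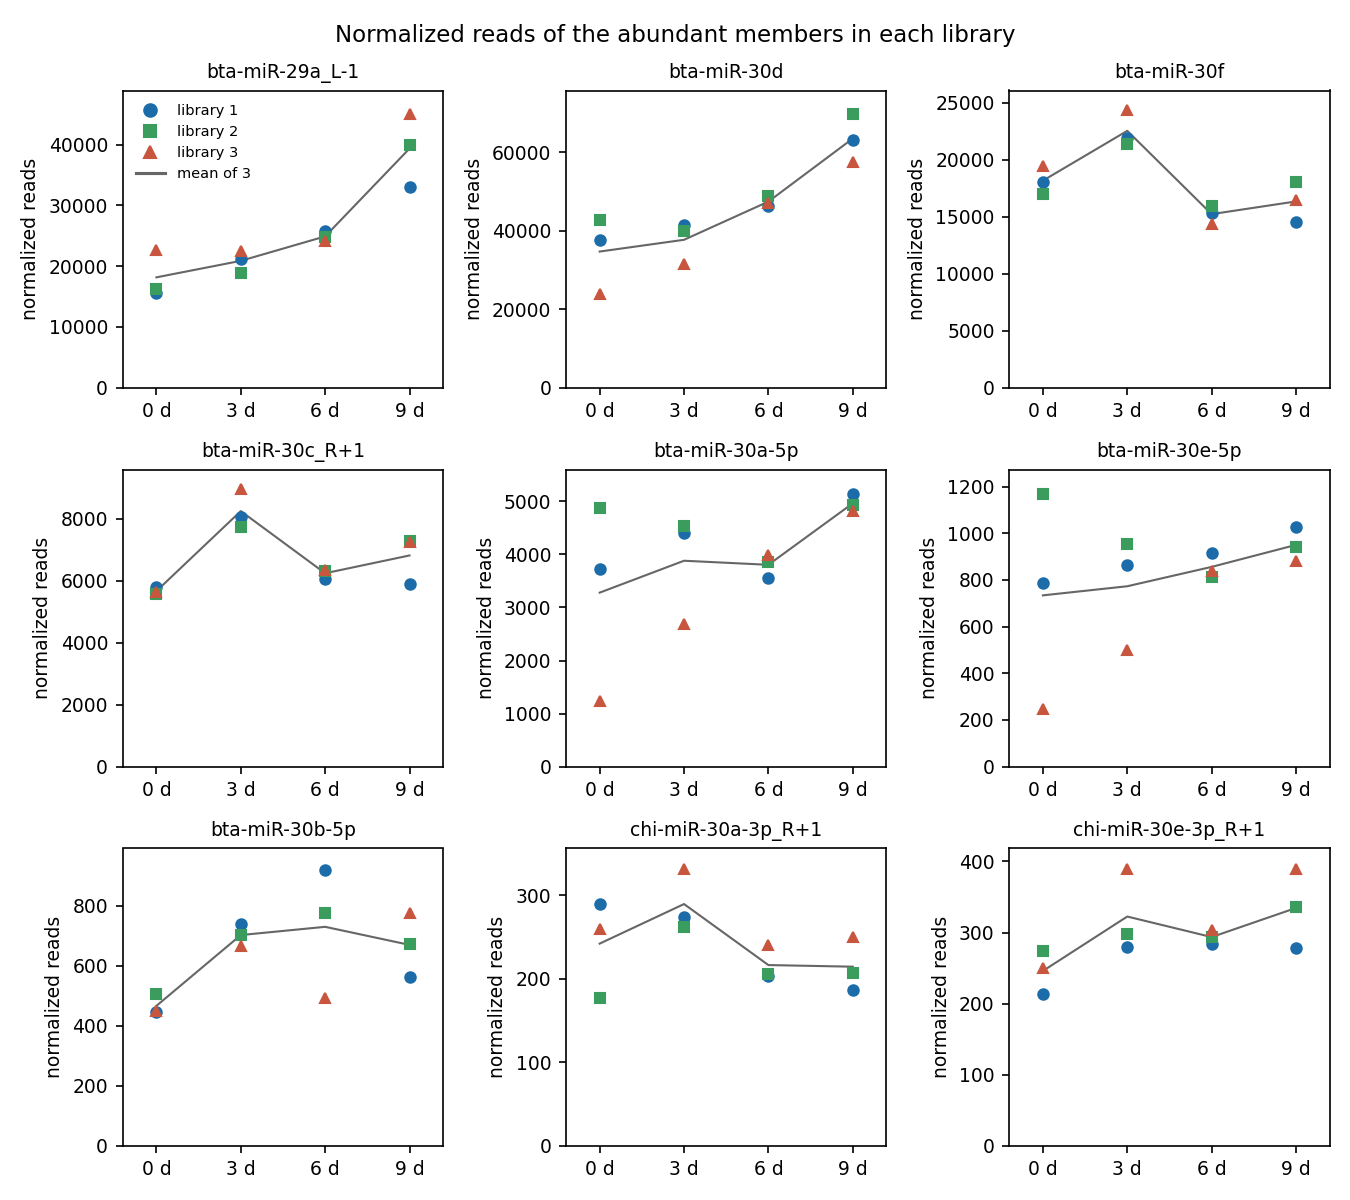
Normalized reads (vertical axes, from 0) of the 9 members with the highest mean, by day (horizontal axes). Each symbol is 1 library and the line joins the means of 3. miR-29a and miR-30d are highest at 9 d, miR-30c and miR-30f at 3 d, and the third libraries of 0 d and 3 d (triangles) are the lowest of their day for miR-30a-5p, miR-30d and miR-30e-5p.

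miR-29a stood highest at 9 d. On the authors' normalized scale its reads were 15625, 16190 and 22641 at 0 d, 21109, 18928 and 22562 at 3 d, then 25844, 24743 and 24084 at 6 d, and finally 32940, 40005 and 45092 at 9 d. The 3 libraries of 9 d lay above all 9 earlier ones, and those of 6 d above all 6 of 0 d and 3 d, while 0 d and 3 d overlapped. At 0 d miR-29a (18152 ± 3898 normalized reads) and miR-30f (18164 ± 1250) did not differ beyond their spread, nor did they at 3 d. At 6 d and 9 d miR-29a lay above miR-30f and below miR-30d.

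miR-30d was the most abundant member by its mean on every day. Its normalized reads were 37554, 42629 and 23909 at 0 d, 41452, 39989 and 31648 at 3 d, then 46307, 48914 and 47070 at 6 d, and finally 63250, 69849 and 57408 at 9 d. All libraries of 6 d lay above those of 0 d and 3 d, and all of 9 d above those of 6 d. miR-30a-5p, which differs from it by a single base, had 3731, 4867 and 1238 normalized reads at 0 d, 4406, 4538 and 2696 at 3 d, then 3555, 3864 and 3991 at 6 d, and finally 5137, 4936 and 4812 at 9 d. For miR-30e-5p they were 786, 1167 and 249 at 0 d, 865, 956 and 498 at 3 d, then 916, 815 and 838 at 6 d, and finally 1027, 941 and 883 at 9 d. Both are lowest in the third library of 0 d and next lowest in the third library of 3 d.

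The low values of the third 0 d library fall on the 30a, 30d and 30e trio. The mean of the other 0 d libraries was 3.47 times the third for miR-30a-5p, 3.92 times for miR-30e-5p and 1.68 times for miR-30d. At 3 d the same ratios were 1.66, 1.83 and 1.29. For the trio with the other ending the 0 d ratios were near 1: 1.06 for miR-30b-5p, 1.01 for miR-30c and 0.898 for miR-30f. The 3p arms of the same hairpins were not low in that library either, with ratios of 0.900 for 30a and 0.974 for 30e. The reason was not tested.

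miR-30c and miR-30f stood highest at 3 d on the normalized scale. miR-30c had 5807, 5565 and 5628 normalized reads at 0 d, 8042, 7739 and 8964 at 3 d, then 6072, 6318 and 6336 at 6 d, and finally 5901, 7286 and 7263 at 9 d. The libraries of 3 d lay above the other 9. miR-30f had 18007, 17000 and 19485 at 0 d, 21912, 21358 and 24336 at 3 d, then 15329, 15946 and 14403 at 6 d, and finally 14528, 18014 and 16483 at 9 d, so here too 3 d lay above the rest. miR-30b-5p had 445, 506 and 448 at 0 d, 739, 702 and 666 at 3 d, then 920, 775 and 494 at 6 d, and finally 561, 671 and 776 at 9 d. Its 0 d libraries lay below those of 3 d and 9 d, and the 6 d libraries spread widely. miR-30b-5p and miR-30e-5p differed beyond their spread at 9 d (670 ± 108 and 950 ± 72.7) and not at 0 d, 3 d or 6 d.

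The 3p arms of the miR-30 family and the rarer forms of both families did not pass in the fit reported here, and several had few reads. miR-30a-3p had 289, 177 and 259 normalized reads at 0 d, 274, 262 and 331 at 3 d, then 203, 205 and 240 at 6 d, and finally 186, 206 and 250 at 9 d. miR-30e-3p had 213, 274 and 250 at 0 d, 280, 298 and 389 at 3 d, then 283.5, 293 and 304 at 6 d, and finally 279, 336 and 390 at 9 d. Its libraries overlapped between 3 d, 6 d and 9 d and lay above 0 d on each of these days. miR-30f-3p ran from 51.2 to 89.4 in the 12 libraries, and its values were 85.0, 63.6 and 87.8 at 0 d, 70.1, 73.8 and 82.3 at 3 d, then 51.2, 63.2 and 80.5 at 6 d, and finally 68.7, 89.4 and 82.2 at 9 d. The 5p arm of miR-29a had 55.2, 46.1 and 35.1 at 0 d and 26.01, 14.8 and 22.2 at 3 d. It had 69.4, 71.9 and 29.7 at 6 d, and finally 12.7, 50.8 and 61.0 at 9 d. Its 3 d libraries lay below all those of 0 d and of 6 d, with no order among 0 d, 6 d and 9 d. From 3 d to 6 d it had 1.49 ± 0.53 (adjusted p 0.155, edgeR). The remaining described forms are given as unscaled reads. miR-30b-3p had 25, 16 and 21 reads at 0 d, 24, 40 and 57 at 3 d, then 52, 92 and 70 at 6 d, and finally 41, 41 and 59 at 9 d. The miR-29b-1 5p arm had 12, 13 and 11 at 0 d, 11, 0 and 0 at 3 d, then 15, 41 and 21 at 6 d, and finally 11, 19 and 25 at 9 d. At 3 d it had -2.13 ± 1.08 (adjusted p 0.267, edgeR), with its normalized reads below 0 d in all libraries. It passed downward there with limma (-3.08). It also passed downward without the first 3 d library, which leaves 3 d with 0 reads, so no fold change is given for that fit. Without that library it passed upward from 3 d to 6 d as well. These low counts leave wide errors. miR-30c-1-3p had 8, 12 and 6 at 0 d, 7, 0 and 13 at 3 d, then 21, 26 and 34 at 6 d, and finally 14, 15 and 13 at 9 d. The hamster-named 26-base form of miR-30c-2 had 10, 6 and 0 at 0 d, 22, 19 and 23 at 3 d, then 11, 18 and 10 at 6 d, and finally 5, 7 and 5 at 9 d.

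The 7 members under a mean of 10 reads include miR-29b and miR-29c, which share the seed of miR-29a. miR-29b had 2.5 to 21 reads per library and miR-29c 0 to 9.5 (fractions may come from reads shared between names, which was not tested). The goat-named 5p arm of miR-29b had 0 reads in the 3 libraries of 0 d and 0 to 12 later, and as a count of 0 allows up to 3 reads, no fold change is given. miR-29d-5p was seen in a single library with 6 reads and was not tested. The 3p arm of miR-30d reached at most 8 reads, and 2 names of a 26-base form have the same sequence and the same values, at most 7 reads, so they are not independent. The 6 of these 7 that were tested did not pass in any comparison.

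The question of 3 d against 0 d is how the families stand soon after the 2 days with all induction agents. miR-30c rose and was the only member to pass the test (adjusted p under 0.05). miR-29a and miR-30d lay little above 0 d. Of 21 members tested with edgeR (quasi-likelihood, Benjamini-Hochberg over all miRNAs), 1 passed, beside 9.36% of all 1079 miRNAs tested, and 0 were also over 2-fold, beside 6.49%. At an unadjusted p under 0.05 there were 5, a level for which no share of all miRNAs is given. DESeq2 and limma on the normalized values passed 2 members each, beside 142 and 114 of the 1079 miRNAs. The median log2 fold change of the members was 0.35 and of all miRNAs 0.03. miR-30c rose by 0.67 ± 0.15 (log2 fold change ± SE, adjusted p 0.0106, edgeR), with all 3 libraries above those of 0 d. miR-30b-5p (0.72 ± 0.23) and miR-30f (0.44 ± 0.14) had an adjusted p of 0.0730 each in edgeR, and their 3 d libraries also lay above 0 d. miR-30b-5p passed without the third 6 d library (0.0291, edgeR; 0.0291 to 0.213 over all alternatives). miR-29a had 0.34 ± 0.17 and miR-30d 0.24 ± 0.21, with overlapping libraries. Without the third 0 d library miR-29a had 0.48 and passed (adjusted p 0.0425, edgeR; 0.0425 to 0.536 over all alternatives), as did miR-30f with 0.45 (0.0264; 0.0264 to 0.231), while miR-30d fell to -0.00. The call of miR-30c was lost with the 6 libraries alone (adjusted p 0.0767, edgeR) and without the third 3 d library (0.0603; 6.75e-06 to 0.0767 over all alternatives).

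At 6 d, under insulin for longer, miR-29a and miR-30b-5p stood above 0 d. miR-30c and miR-30f did not pass. All comparisons with 0 d share the same 3 libraries of 0 d. In edgeR 2 of 21 members passed, beside 16.0% of all miRNAs, and 0 were also over 2-fold, beside 11.6%. The median log2 fold change was 0.55 for the members and 0.26 for all miRNAs. miR-29a rose by 0.64 ± 0.17 (adjusted p 0.0192, edgeR), with every 6 d library above every 0 d library. miR-30b-5p rose by 0.82 ± 0.23 (adjusted p 0.0251, edgeR), although 1 of its 6 d libraries lay within the range of 0 d. miR-30d had 0.61 ± 0.21 (adjusted p 0.0669, edgeR) with no overlap. Its value was 0.38 without the third 0 d library and 0.81 without the second, where it passed (adjusted p 0.0238, edgeR; 0.0177 to 0.291 over all alternatives). miR-30c had 0.32 ± 0.15 and miR-30f -0.07 ± 0.14. Both calls were lost with RLE factors, with limma on the normalized values, with at least 120 reads, with the 6 libraries alone and without the first 0 d, the first 6 d or the second 6 d library (adjusted p of miR-29a 0.00140 to 0.116 over all alternatives). That of miR-30b-5p was also lost without scaling factors (0.0653), without the second 9 d library (0.0545) and without the third libraries of 0 d and 3 d together (0.0567; 0.00389 to 0.169 over all alternatives, edgeR or as named).

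At 9 d, the end of the course, miR-29a and miR-30d rose over 2-fold against 0 d. They are the most abundant member of each family. In edgeR 3 of 21 members passed, all upward, beside 24.2% of all miRNAs, and 2 of them were also over 2-fold, beside 18.7%. The median was 0.42 for the members and 0.00 for all miRNAs. miR-29a rose by 1.28 ± 0.17, a 2.43-fold change (adjusted p 0.000110, edgeR), with the 3 libraries of 9 d above the 3 of 0 d. It passed under every alternative tried, with 0.95 to 1.44 and an adjusted p of 2.59e-09 to 0.00621. miR-30d rose by 1.01 ± 0.21, a 2.02-fold change (adjusted p 0.00326, edgeR), again with no overlap. Without the third 0 d library its rise was 0.78, under 2-fold (adjusted p 0.000781, edgeR). With library totals as the sole scaling it was 0.64 and no longer passed (0.0735; 0.000196 to 0.0735 over all alternatives). miR-30b-5p rose by 0.68 ± 0.23 (adjusted p 0.0455, edgeR), with no overlap, but the call was lost in 16 alternatives, among them DESeq2 (adjusted p 0.0545, with 0.0147 to 0.361 over all alternatives).

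Among the members that did not pass at 9 d, miR-30a-5p had 0.73 ± 0.37 and miR-30e-5p 0.50 ± 0.41, with libraries that overlapped those of 0 d. Without the third 0 d library these became 0.32 and 0.08, and without the second 1.18 and 1.06, where miR-30a-5p passed (adjusted p 0.0411, edgeR; 0.0411 to 0.6004 over all alternatives). miR-30e-3p (0.60 ± 0.21, adjusted p 0.0523, edgeR) and miR-30c (0.42 ± 0.15, adjusted p 0.0547, edgeR) lay above 0 d in all 3 libraries, and each passed in 5 alternatives, for miR-30c DESeq2 among them. miR-30f had 0.00 ± 0.14, and its sign changes with the scaling, from -0.34 to 0.07 over the alternatives. Whether miR-30d and miR-30f changed differently was not tested.

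**Figure D2:**
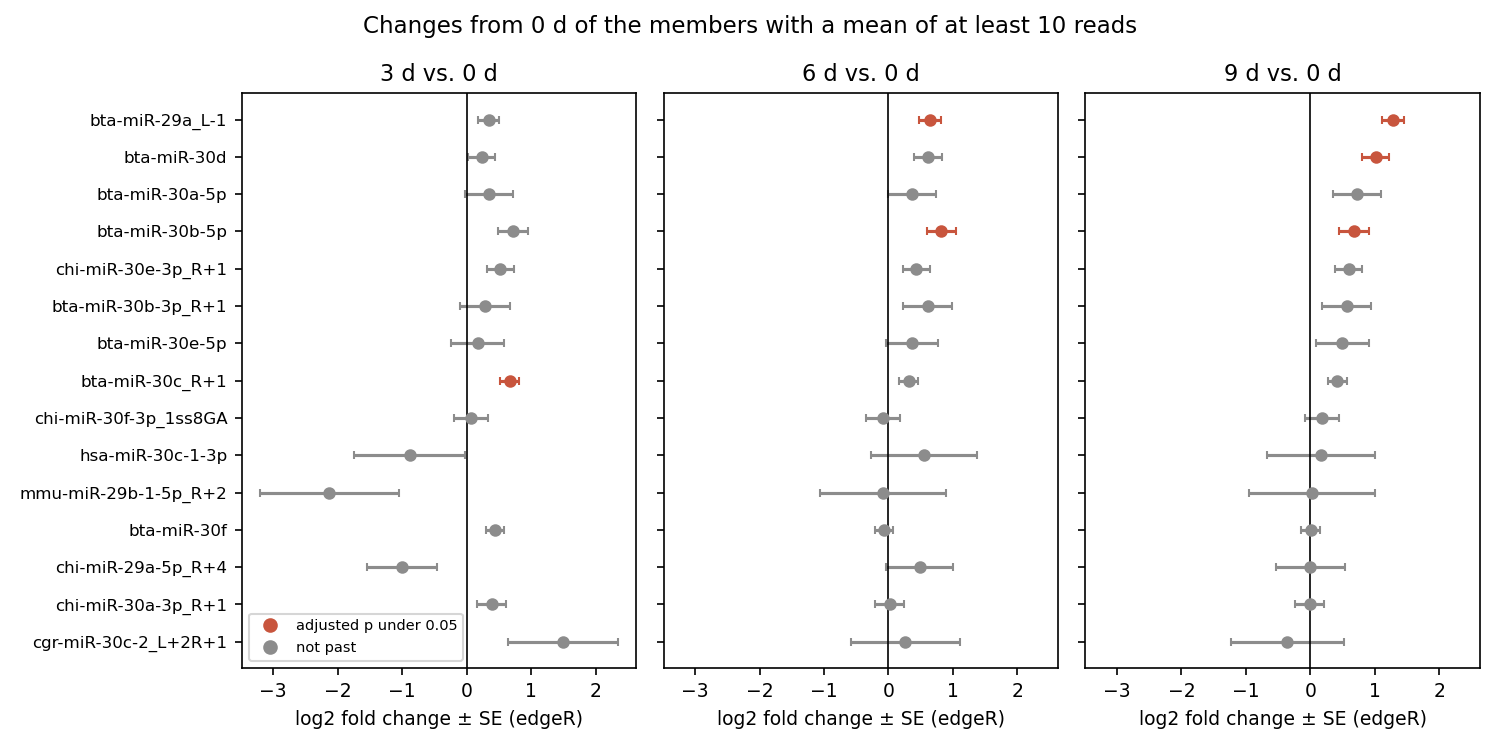
Log2 fold change from 0 d (horizontal axes) of the 15 members with a mean of at least 10 reads, at 3 d, 6 d and 9 d. Points are edgeR estimates, bars are 1 SE, and red marks an adjusted p under 0.05. miR-29a stands at 0.34, 0.64 and 1.28 and miR-30d at 0.24, 0.61 and 1.01, and all 3 panels share the libraries of 0 d.

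From 3 d to 6 d, both under insulin after the other agents had been withdrawn, miR-30f fell. It was the single member to pass. In edgeR this is 1 of 21 members beside 5.75% of all miRNAs. DESeq2 also passed miR-30c, beside 93 of the 1079 miRNAs. miR-30f fell by 0.52 on the log2 scale (SE 0.14, adjusted p 0.0480, edgeR), with every 6 d library below every 3 d library. miR-30c had -0.35 ± 0.15 (adjusted p 0.247, edgeR), also without overlap. The call of miR-30f was lost without a filter on low reads (adjusted p 0.161, edgeR) and without any 1 of the libraries of 3 d, 6 d or 9 d, where its value ran from -0.57 to -0.47 (adjusted p 1.57e-05 to 0.201 over all alternatives).

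From 6 d to 9 d, also under insulin, miR-29a went on upward in its values without passing. In edgeR 0 of 21 members passed, beside 1.95% of all miRNAs. At an unadjusted p under 0.05 there was 1, miR-29a, a level for which no share of all miRNAs is given. DESeq2 passed 1, also miR-29a, beside 64 of the 1079 miRNAs, and limma passed 0, beside 21. miR-29a had 0.64 ± 0.17 (adjusted p 0.0762, edgeR), and all 3 libraries of 9 d lay above those of 6 d. Without the third 0 d library, which enters only the estimate of spread and scaling, the value stayed 0.64 and the adjusted p was 0.00853 (edgeR; 0.00507 to 0.293 over all alternatives). miR-30d had 0.40 ± 0.21, with no overlap and an adjusted p of 0.495 in edgeR, and passed only without the third libraries of 0 d and 3 d (0.0184; 0.0184 to 0.846 over all alternatives).

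Ratios within a library do not depend on the scaling between libraries. The log2 ratio of miR-29 to miR-30 reads was -2.09, -2.15 and -1.18 at 0 d, -1.88, -2.002 and -1.63 at 3 d, then -1.51, -1.64 and -1.61 at 6 d, and finally -1.46, -1.35 and -0.97 at 9 d. Apart from the third 0 d library, the libraries of 9 d lay highest. The means were -1.81 ± 0.54 (SD, n = 3), -1.84 ± 0.19, -1.59 ± 0.07 and -1.26 ± 0.26, and the mean of 9 d lay 0.55 above that of 0 d, or 0.86 above it without the third 0 d library. Within the miR-30 5p arms the later days lay lower. The log2 ratio of 30b, 30c and 30f to 30a, 30d and 30e was -0.79, -1.08 and 0.01 at 0 d, -0.61, -0.61 and -0.04 at 3 d, then -1.19, -1.22 and -1.29 at 6 d, and finally -1.73, -1.54 and -1.36 at 9 d. The libraries of 6 d and 9 d lay below all of 0 d and 3 d, and no test was run on either ratio. miR-30f over miR-30c, a ratio inside 1 trio, went from 3.21 ± 0.223 at 0 d to 2.73 ± 0.0236, 2.44 ± 0.145 and 2.40 ± 0.114 at 3 d, 6 d and 9 d. miR-30d over miR-30a-5p was 10.1, 8.76 and 19.3 at 0 d, 9.41, 8.81 and 11.7 at 3 d, then 13.0, 12.7 and 11.8 at 6 d, and finally 12.3, 14.2 and 11.9 at 9 d, with the value of 19.3 making most of the spread of 0 d.

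**Figure D3:**
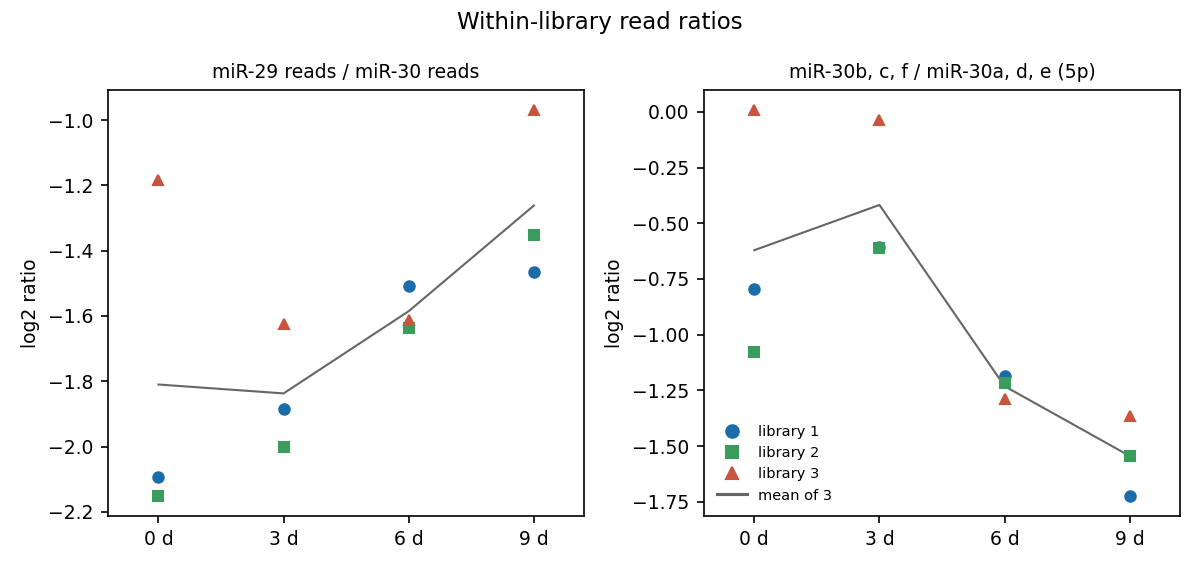
Log2 ratios of reads within each library (vertical axes) by day (horizontal axes). Left, miR-29 over miR-30 reads. Right, the 5p arms of miR-30b, 30c and 30f over those of miR-30a, 30d and 30e. Symbols are libraries and lines join the means of 3. The third library of 0 d lies highest of its day in both panels, at -1.18 and 0.01.

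The 2 arms of a hairpin did not keep a fixed ratio. Reads of miR-30a-5p over miR-30a-3p were 12.9, 27.5 and 4.78 at 0 d, 16.1, 17.3 and 8.14 at 3 d, then 17.5, 18.8 and 16.6 at 6 d, and finally 27.6, 23.9 and 19.3 at 9 d. For miR-30e the ratios were 3.69, 4.25 and 0.996 at 0 d, 3.09, 3.20 and 1.28 at 3 d, then 3.23, 2.78 and 2.75 at 6 d, and finally 3.69, 2.80 and 2.27 at 9 d. The third library was the lowest of its day for both hairpins on all 4 days. The 5p arm led by more in miR-30f, with a ratio of 179 to 312 over the 12 libraries, and by 9.71 to 27.2 in miR-30b.

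**Figure D4:**
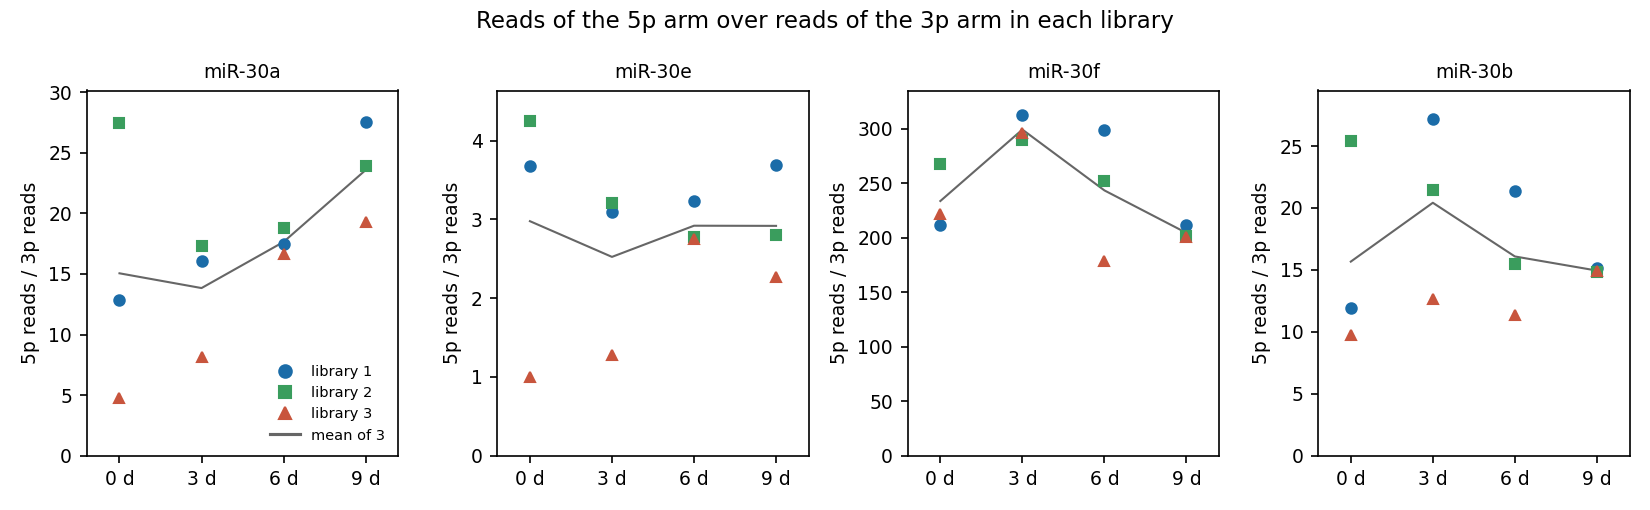
Reads of the 5p arm divided by reads of the 3p arm (vertical axes, from 0) of 4 miR-30 hairpins by day (horizontal axes). Symbols are libraries and lines join the means of 3. For miR-30a and miR-30e the third library (triangles) is the lowest of each day, at 4.78 and 0.996 at 0 d.

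Across the 12 libraries the members did not move as a block. As a description, Pearson r of log2 normalized reads was 0.97 between miR-30a-5p and miR-30e-5p (n = 12 libraries), which come from different chromosomes. It was 0.83 between miR-30d and miR-30a-5p, 0.65 between miR-29a and miR-30d, and -0.57 between miR-30f and miR-30d (n = 12 each). miR-30a-5p and its own 3p arm had -0.41 (n = 12). Among 348 abundant miRNAs outside the families, those most like miR-29a were miR-381 (r 0.96), miR-10a (0.96) and miR-199a-3p (0.94), with n = 12 and a median of 0.05. Most like miR-30d were miR-199a-5p (r 0.98), miR-181a-3p (0.95) and miR-339-5p (0.95), with n = 12 and a median of 0.13. The libraries share 4 days, so such values follow any common course over time.

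Published targets of the seeds were read in the mRNA table, with no search for target sites. Of 30 genes on the miR-29 list 29 were tested with limma, DNMT3B being too low, and a call needs an adjusted p under 0.05 and more than a 2-fold change. At 3 d 12 of 29 were called, 7 up and 5 down, beside 23.3% of all mRNAs. At 6 d 8 were called, 6 up and 2 down, beside 11.4%, and at 9 d 4, 2 up and 2 down, beside 10.9%, or 2 with a pseudocount of 1. The list's median log2 fold changes were -0.07, 0.10 and -0.07, and those of all mRNAs -0.06, -0.15 and -0.19. Calls on the list thus went in both directions on each day. Most of the calls were matrix genes, 9, 7 and 4 of 15 on the 3 days. None of the 5 DNA methylation genes was called by limma on any day, with 0, 1 and 1 at an unadjusted p under 0.05 and 0, 0 and 1 by the adjusted p without the 2-fold rule. For these looser levels no share of all mRNAs is given.

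COL15A1, a collagen of basement membrane zones, had the largest fall among the called genes of the list on each day. It had 267, 270 and 273 FPKM at 0 d, 18.4, 19.6 and 19.0 at 3 d, then 28.1, 23.9 and 28.4 at 6 d, and finally 70.6, 65.8 and 80.1 at 9 d. All later libraries lay below 0 d, and its log2 fold changes were -3.82 ± 0.09, -3.33 ± 0.09 and -1.91 ± 0.09 (adjusted p 3.31e-10, 4.42e-09 and 1.82e-07, limma). The fall was smallest at 9 d. ELN, elastin, had 8852, 9014 and 9560 FPKM at 0 d and 841, 1237 and 1239 at 3 d, a fall of -3.07 ± 0.13 with no overlap (adjusted p 2.63e-08, limma). It stayed below 0 d in all libraries at 6 d (mean 5174 FPKM, -0.82 ± 0.13, adjusted p 0.000780, limma) and at 9 d (mean 4631 FPKM, -0.98 ± 0.13, adjusted p 0.000255, limma), under 2-fold.

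COL4A2 and COL4A1, type IV collagens of the basement membrane, were called upward at 3 d and 6 d. COL4A2 had 6.28, 6.50 and 6.58 FPKM at 0 d, 26.4, 39.0 and 37.1 at 3 d, then 27.5, 27.1 and 27.1 at 6 d, and finally 14.5, 12.9 and 13.8 at 9 d. Its log2 fold changes were 2.37 ± 0.13, 2.06 ± 0.13 and 1.08 ± 0.13 (adjusted p 1.48e-07, 1.14e-06 and 0.000122, limma), with no overlap with 0 d, and with a pseudocount of 1 the 9 d change is 0.98 and not called. COL4A1 rose by 2.0001 ± 0.05 at 3 d and by 1.83 ± 0.05 at 6 d (adjusted p 5.42e-10 and 4.52e-09, limma), from 75.9, 75.5 and 77.8 FPKM to 295, 315 and 307 and then to 270.2, 280 and 268, without overlap. At 9 d COL4A1 had 0.89 ± 0.05 (adjusted p 5.93e-07, limma), also without overlap but under 2-fold and not called. MMP2, a gelatinase that degrades matrix, rose on all 3 days without overlap, by 1.90 ± 0.06 at 3 d, 1.201 ± 0.06 at 6 d and 1.39 ± 0.06 at 9 d on the log2 scale (adjusted p 1.79e-09, 1.60e-07 and 9.00e-08, limma). It had 891, 902 and 942 FPKM at 0 d, 3173, 3677 and 3406 at 3 d, then 2142, 2094 and 2049 at 6 d, and finally 2470, 2310 and 2388 at 9 d. COL5A3 had 8.04, 7.96 and 8.21 FPKM at 0 d, rose to 18.7, 22.5 and 21.3 at 3 d (1.35 ± 0.20, adjusted p 0.000226, limma) and at 9 d fell to 3.25, 3.37 and 5.39 (-1.03 ± 0.20, adjusted p 0.00243, limma), both without overlap. The 9 d call of COL5A3 was lost with a pseudocount of 1 (-0.88), with rescaled FPKM (-0.83) and without the first or the second 9 d library (-0.90 and -0.93). For IGF1, a growth factor, 19.5, 16.2 and 10.3 FPKM at 0 d became 106, 111 and 117 at 3 d (2.90 ± 0.52, adjusted p 0.000941, limma) and 1.17, 5.88 and 6.25 at 6 d (-2.04 ± 0.52, adjusted p 0.0125, limma). Neither change of IGF1 has overlapping libraries, and without the first 6 d library the second is -1.28.

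The 2 most abundant genes of the list are fibrillar collagens that were not called at 9 d. COL3A1 had 105377, 102820 and 109333 FPKM at 0 d and 173652, 163376 and 175454 at 9 d, a log2 difference of 0.69 ± 0.04 (adjusted p 1.29e-06, limma), under 2-fold, with no overlap. COL1A2 had 11124, 10767 and 10509 FPKM at 0 d and 15698, 13413 and 13834 at 9 d (0.40 ± 0.07, adjusted p 0.00156, limma), also with no overlap. At 3 d COL1A2 had fallen to 4375, 5103 and 4834 FPKM (-1.18 ± 0.07, adjusted p 3.56e-07, limma). COL3A1 lay above 0 d in all libraries at 3 d (0.26 ± 0.04, adjusted p 0.000454, limma). At 6 d it lay below 0 d in all libraries (-0.14 ± 0.04, adjusted p 0.0290, limma), while COL1A2 lay above (0.35 ± 0.07, adjusted p 0.00359, limma). Both collagens thus stood above 0 d at 9 d but not on every earlier day, and a link to miR-29a was not tested.

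Of 23 genes read from the miR-30 list, 21 were tested with limma, DLL4 and MTTP being too low. At 3 d 7 of 21 were called, 3 up and 4 down, at 6 d 2, 1 up and 1 down, and at 9 d 1, downward, beside the same shares of all mRNAs. With a pseudocount of 1 the 3 d count was 4, without SNAI1, PRDM1 and SMAD1, and with rescaled FPKM the 6 d count was 4. The medians were -0.42, -0.09 and -0.00. Of the 4 mesenchymal genes on the list 3 were called downward at 3 d. SNAI1, at a low level, went from 0.35, 0.38 and 0.41 FPKM at 0 d to 0.93, 0.90 and 0.87 at 3 d without overlap (1.06 ± 0.09, adjusted p 4.37e-06, limma), a call lost with a pseudocount of 1 (0.46). CCN2, the matricellular factor also called CTGF, had 2500, 2345 and 2463 FPKM at 0 d, 54.4, 55.0 and 59.9 at 3 d, then 1581, 1696 and 1769 at 6 d, and finally 1842, 1999 and 1880 at 9 d. Its change at 3 d was -5.43 ± 0.06 (adjusted p 5.95e-12, limma), with no overlap. ITGB3, an integrin subunit, went from 215, 205 and 200.2 FPKM to 22, 24.5 and 24.0 at 3 d (-3.13 ± 0.06, adjusted p 1.27e-10, limma). VIM, vimentin, went from 23621, 23499 and 25642 FPKM to 9570, 10413 and 10076 at 3 d (-1.28 ± 0.05, adjusted p 1.50e-08, limma) and was back at a mean of 24878 at 6 d. CCN2 stayed below 0 d in all libraries at 6 d (-0.54 ± 0.06, adjusted p 6.45e-05, limma) and at 9 d (-0.35 ± 0.06, adjusted p 0.00107, limma), under 2-fold. ITGB3 had 135, 129 and 142 FPKM at 9 d, also below 0 d in all libraries and under 2-fold (-0.61 ± 0.06, adjusted p 3.26e-05, limma).

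TWF1, an actin monomer binder, rose at 3 d from 1.93, 1.53 and 1.35 FPKM to 5.95, 3.92 and 6.61 (1.70 ± 0.47, adjusted p 0.0117, limma). At 6 d SOX9, a cartilage regulator, fell from 2.49, 2.87 and 2.65 FPKM to 0.40, 0.32 and 0.51 (-2.46 ± 0.15, adjusted p 1.16e-06, limma), a value of -1.38 with a pseudocount of 1. Neither change has overlapping libraries, and TWF1 was no longer called without the third libraries of 0 d and 3 d. SMAD1 of BMP signalling, named after its values were seen, had 4.69, 2.59 and 4.31 FPKM at 0 d and fell to 1.61, 1.46 and 1.53 at 3 d without overlap (-1.24 ± 0.36, adjusted p 0.0145, limma). That call was lost with a pseudocount of 1 (-0.91), without the first 0 d library and without the third libraries of 0 d and 3 d. SMAD1 is also the single call at 9 d, with 1.58, 3.01 and 1.12 FPKM, which overlap 0 d (-1.05 ± 0.36, adjusted p 0.0422, limma). The 9 d call was lost with a pseudocount of 1, with no filter, with rescaled FPKM and in 9 of the 12 fits that leave out a library.

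**Figure D5:**
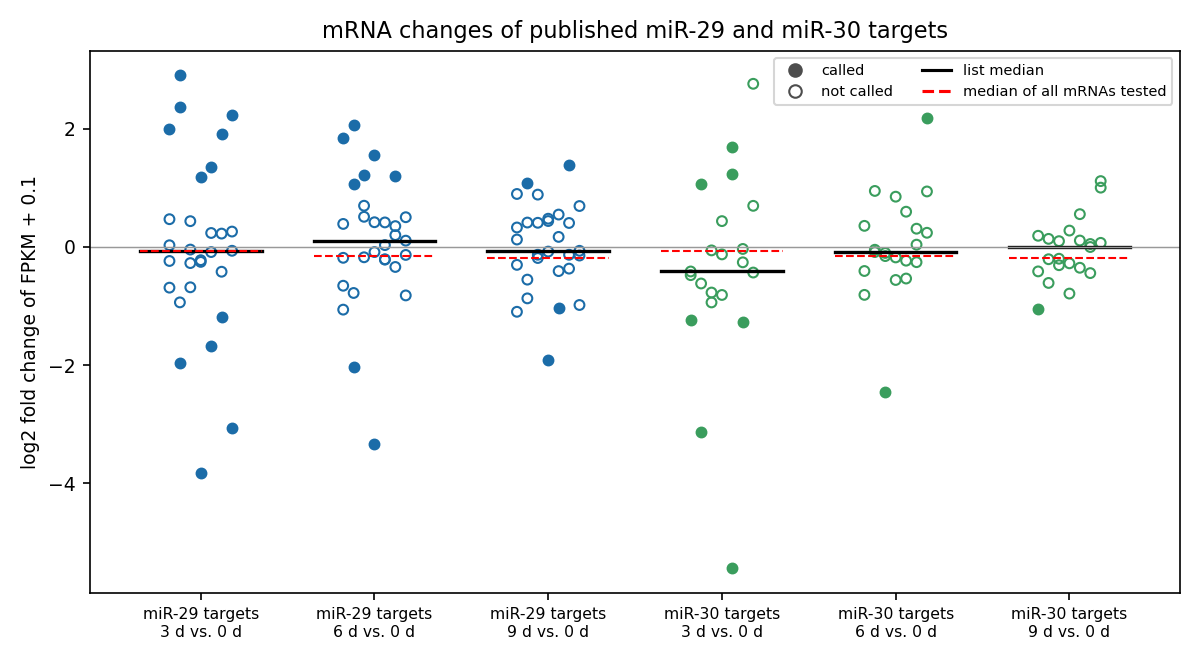
Log2 fold change of FPKM + 0.1 (vertical axis) of the published miR-29 targets (blue, 29 tested) and miR-30 targets (green, 21 tested) against 0 d. Each circle is 1 gene, filled where called, black lines are list medians and dashed red lines the median of all mRNAs tested. Calls lie on both sides of 0 at 3 d and 6 d for each list, and all comparisons share the libraries of 0 d.

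Of 10 genes that make and load miRNAs tested with limma, 0 were called at 3 d beside 23.3% of all mRNAs, 1 at 6 d beside 11.4% and 1 at 9 d beside 10.9%. At an unadjusted p under 0.05 there were 3, 5 and 7, and by the adjusted p without the 2-fold rule 3, 5 and 5. The shares of all mRNAs above hold for the 2-fold rule, and none is given for these looser levels. Whether these counts exceed those of other mRNAs was not tested. Both calls are TNRC6C, a partner of the silencing complex, which had 6.23, 4.93 and 5.14 FPKM at 0 d and fell to 2.30, 2.02 and 1.87 at 6 d (-1.35 ± 0.15, adjusted p 6.86e-05, limma) and to 1.97, 1.31 and 1.53 at 9 d (-1.71 ± 0.15, adjusted p 1.60e-05, limma), with no overlap. TARBP2, a partner of DICER1, lay below 0 d in all libraries on the 3 later days, under 2-fold (-0.62 ± 0.11, -0.33 ± 0.11 and -0.70 ± 0.11, adjusted p 0.000825, 0.0419 and 0.000682, limma). TNRC6B did so at 6 d and 9 d (-0.58 ± 0.15 and -0.59 ± 0.15, adjusted p 0.0126 and 0.0105, limma), TNRC6A at 6 d (-0.34 ± 0.11, adjusted p 0.0394, limma) and AGO4, at most 1.35 FPKM, at 3 d (-0.93 ± 0.20, adjusted p 0.00322, limma) and 9 d (-0.71 ± 0.20, adjusted p 0.0214, limma). TNRC6A at 3 d had 0.32 ± 0.11 with overlapping libraries (adjusted p 0.0363, limma). These 5 genes were named after their values were seen. AGO2, the slicing Argonaute, had 2308, 2306 and 1989 FPKM at 0 d and 1587, 1470 and 1441 at 6 d, a difference under 2-fold (-0.55 ± 0.07, adjusted p 0.000167, limma) with no overlap. DICER1, which cuts the hairpin, had 15.6, 15.8 and 27.5 FPKM at 0 d and 21.2, 10.7 and 10.6 at 9 d, with no call on any day. DROSHA, which releases the hairpin, had 7.56, 9.10 and 6.22 FPKM at 0 d and 6.54, 5.46 and 6.12 at 9 d, also without a call. NFYC, the host gene of miR-30c and miR-30e, had 13.5, 33.2 and 15.2 FPKM at 0 d, 16.9, 14.5 and 15.1 at 3 d, then 18.1, 15.4 and 15.8 at 6 d, and finally 14.2, 12.7 and 12.5 at 9 d, with overlapping libraries. At 3 d, where miR-30c rose, NFYC had -0.29 ± 0.27 (adjusted p 0.406, limma), or 0.11 without the second 0 d library.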

How the data were processed

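RNA was measured in 12 libraries, 3 for each of 4 days. The authors mapped small RNA reads to miRBase hairpins. The deposited raw miRNA values are estimated counts, some with fractions, which may come from reads shared between names. The deposited normalized miRNA values are a signal equal to the raw value times 1 factor per library; the paper names TMM for its own tests. The deposited mRNA values are FPKM, which the authors computed from HISAT2 alignments. 1 value per miRNA name was kept (1458 lines, 1330 names). The labels name the build mm8, but the positions are bovine.

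Raw values were rounded and those summing to at least 10 tested with edgeR 4.0.16 (TMM, quasi-likelihood) in R 4.3.3, 1 mean per day, with Benjamini-Hochberg adjustment within each comparison; SE is the absolute log2 fold change over the root of F. mRNAs with a mean FPKM of at least 0.1 were tested with limma 3.58.1 (trend) on log2(FPKM + 0.1). Both were tested on simulated data. Alternatives included DESeq2 1.42.0, other scalings and filters, and leaving out libraries. Python 3.11.15, pandas 2.3.3, NumPy 2.4.6, SciPy 1.17.1 and Matplotlib 3.10.9 served for tables and figures. Members and lists were chosen with earlier results of these data known. Named are members with a mean of at least 10 reads, per list and day up to 4 of the largest calls without overlap (1 is not reported here), the 2 most abundant genes per list and the 3 most alike miRNAs.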

Additional observations from a re-analysis of the deposited data

How the results depend on the processing

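No member value past the test changed direction under the alternatives, while some values near 0 that did not pass changed sign. Over the fold changes of the 15 described members, 1502 values stayed on their side of the threshold, 26 newly passed and 47 no longer passed. Most of the 1502 belong to comparisons that did not pass in the reported fit. All 47 losses fall on the few reported calls: 1 at 3 d, 2 at 6 d, 3 at 9 d and 1 from 3 d to 6 d. The 1502 are thus no measure of how stable these calls are. Unless a construction with fewer libraries or fewer miRNAs shows it, the cause was not tested. The number of members past the test at 3 d, 1 as reported, was 2 with DESeq2 and 2 with limma on normalized values, and 0 with the 6 libraries alone or with the 2-fold rule. At 6 d, 2 as reported, it was 1 with library totals only, and 0 with RLE factors, with limma, with at least 120 reads, with the 6 libraries alone and with the 2-fold rule. At 9 d, 3 as reported, it was 1 with library totals only, and 2 with RLE factors, with limma, with no filter, with at least 120 reads and with the 6 libraries alone. From 3 d to 6 d, 1 as reported, it was 2 with DESeq2, and 0 with no filter and with the 2-fold rule. From 6 d to 9 d, 0 as reported by edgeR (1 at an unadjusted p under 0.05), it was 1 with DESeq2 and 1 with the 6 libraries alone. Leaving out the third libraries of 0 d and 3 d together, an alternative added after seeing the data, gave 1 at 6 d, 4 at 9 d and 2 from 6 d to 9 d.

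Leaving out each library in turn gave 0 to 3 members at 3 d, 0 to 3 of them at 6 d, 2 to 5 at 9 d, 0 to 1 from 3 d to 6 d and 0 to 1 from 6 d to 9 d. The same gave 11 to 13, 8 to 9 and 3 to 5 called miR-29 targets at 3 d, 6 d and 9 d, and 6 to 8, 2 to 3 and 0 to 1 called miR-30 targets. The difference from 0 d to 9 d in the log2 ratio of miR-29 to miR-30 was 0.38 to 0.86, and in that of the miR-30 trios -1.15 to -0.61. For miR-29a over miR-30d alone, the mean log2 ratio was -0.91 ± 0.73 at 0 d and -0.70 ± 0.31 at 9 d (SD, n = 3). That difference was smaller and lay within the spread. With a pseudocount of 1 there were 2 called miR-29 targets at 9 d and 4 called miR-30 targets at 3 d, and rescaled FPKM gave 4 at 6 d. The single miR-30 target at 9 d became 0 with a pseudocount of 1, with no filter, with rescaled FPKM and without the third libraries.

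Replicate numbers were not taken to pair libraries across days, since same-numbered deviations exceeded r 0.1 in 4 of 18 pairs for miRNAs (-0.113 to 0.316) and in 0 of 18 for mRNAs. For miRNAs all 3 pairs of 0 d and 6 d were among the 4 (0.143, 0.109 and 0.316), although the first 0 d library was closer to the second of 6 d (0.165). With a replicate block all the same, 0 members passed from 3 d to 6 d (miR-30f, adjusted p 0.0740, edgeR), 3 at 6 d (miR-30d newly, 0.0177), and 0 miR-30 targets were called at 9 d. The scaling moved the median of all miRNAs: at 6 d it was 0.26 as reported, 0.10 with RLE factors and 0.15 with library totals only, at 9 d 0.00 and -0.19 with totals, and from 6 d to 9 d -0.14 and -0.37 with totals. Members with a mean under 10 reads are limited by depth under every setting.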
